A study of Mus musculus with 16 samples.

Results

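The genes described here are 6 members of the RGS family (regulators of G-protein signalling): Rgs1, Rgs2, Rgs10, Rgs14, Rgs18 and Rgs19. They were taken by symbol from a table of 24421 genes that holds 21 Rgs genes in all, and they were chosen with earlier results of these data in view. They were the 6 Rgs genes with the highest mean level over all libraries. Rgs18 lay just inside at a mean of 3.46 CPM (counts scaled to the effective size of each library) and Rgs3 just outside at 1.63 CPM. All 6 passed the filter on low counts, as did Rgs3, while the other 14 Rgs genes did not.

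The measurements were bulk RNA-seq counts from 16 libraries of CD11b+ cells of MC38-Ova tumours, a mouse colon adenocarcinoma line carrying ovalbumin that was grown under the skin of C57BL/6 mice. All mice carried the Kaede transgene, whose green fluorescent protein turns red under violet light, were 8 to 14 weeks old, and belonged to an untreated control arm. Tumours were photoconverted on day 13 and taken 24h or 72h later, so that Kaede-green cells had entered the tumour since labelling and Kaede-red cells had been there at labelling. Live CD45+, TER119-negative, NK1.1-negative, Kaede+, CD11b+ cells were sorted, with 4 libraries each of Kaede-green 24h, Kaede-red 24h, Kaede-green 72h and Kaede-red 72h cells. All libraries carry the same batch label, so that no comparison could be split by batch. A CD11b sort holds several myeloid cell types, and in bulk RNA fewer cells of a type and less RNA per cell cannot be told apart.

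A G-protein-coupled receptor that binds its ligand loads GTP onto the alpha subunit of a heterotrimeric G protein, which then parts from the beta-gamma subunits, and each part acts on effectors. RGS proteins carry a conserved domain that binds the active alpha subunit and speeds its hydrolysis of GTP, which ends the signal. In leukocytes many chemokine, complement and lipid receptors act through Gi proteins, and RGS proteins are known as brakes on migration towards these ligands.

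Rgs1, Rgs2 and Rgs18 lie in 1 cluster on chromosome 1 in the order Rgs2, Rgs13, Rgs1, Rgs21, Rgs18, all on the minus strand, which spans 776098 bases of the mm10 build. The spans of the genes were chr1:144242296-144249242 for Rgs1, chr1:143999338-144004161 for Rgs2 and chr1:144752683-144775435 for Rgs18. Rgs10 lies at chr7:128373621-128418758 on the minus strand, Rgs14 at chr13:55369732-55384687 on the plus strand and Rgs19 at chr2:181688419-181693977 on the minus strand. An 84-base stretch of coding sequence in exon 4 is printed for the 3 clustered genes to show how alike the members are and whether reads could be assigned to them. It is given 5′ to 3′ on the coding strand, from GENCODE M21 transcripts. Capitals mark the 52 positions that hold the same base in all 3 genes.
Rgs1, chr1:144246259-144246342: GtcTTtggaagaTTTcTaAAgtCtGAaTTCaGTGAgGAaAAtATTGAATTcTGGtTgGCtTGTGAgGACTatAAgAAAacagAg
Rgs2, chr1:144002188-144002271: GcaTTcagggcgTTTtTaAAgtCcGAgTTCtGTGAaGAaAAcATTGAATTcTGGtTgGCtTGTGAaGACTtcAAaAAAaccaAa
Rgs18, chr1:144755995-144756078: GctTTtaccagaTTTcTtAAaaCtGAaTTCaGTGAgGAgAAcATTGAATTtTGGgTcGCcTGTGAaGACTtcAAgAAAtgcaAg
Even here Rgs1 shared 63 of 84 bases with Rgs2 and 63 with Rgs18, and Rgs2 shared 60 with Rgs18. Over whole coding sequences the identity of aligned bases between members was 58.8% to 75.7%, the longest shared run was 23 bases, between Rgs1 and Rgs2, and no stretch of 31 bases was shared by any 2 members. Rgs14 shared 4 stretches of 31 bases with Rgs17, which held 99 counts over all libraries. The span of Rgs10 overlaps that of Gm15503, annotated as a processed transcript on the same strand, by 3374 bases. Gm15503 is no row of the table, and reads from it could have been counted for Rgs10.

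Total counts ran from 3216858 to 15423085 per library, and a large share of them fell on Rn45s, the ribosomal RNA precursor. That share was 79.0% to 93.4% in Kaede-green and 55.8% to 84.9% in Kaede-red libraries, a mean difference of -17.5 percentage points (exact permutation of the colours within each time, two-sided p = 0.000408). Counts outside Rn45s were 468092 to 912689 in Kaede-green and 758192 to 5472477 in Kaede-red libraries, so that the Kaede-green values below rest on fewer reads. Its part in the differences was not tested beyond a fit with the Rn45s share as a covariate, whose values stand beside the results they change. Levels are CPM with trimmed mean (TMM) scaling. The fold changes of the 6 genes come from 1 edgeR quasi-likelihood fit over 9642 genes, and a gene is called where its adjusted p is under 0.05. As the genes were picked with these results known, their values are a description, given beside the share of all genes called.

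Rgs1, which accelerates GTP hydrolysis on Gi and Gq subunits and is known from activated lymphocytes, stood apart in Kaede-red 24h cells. Its level was 25.1, 27.0, 10.2 and 26.2 CPM in the Kaede-green 24h libraries, replicates 1 to 4. It was 91.1, 116, 83.3 and 126 CPM in the Kaede-red 24h libraries. All 4 Kaede-red libraries at 24h lay above all 4 Kaede-green ones. At 72h it was 32.2, 32.4, 35.3 and 32.5 CPM in Kaede-green and 37.0, 29.6, 33.3 and 33.4 CPM in Kaede-red libraries. The groups overlapped at this time, and every value lay below the lowest Kaede-red 24h library.

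In Kaede-red relative to Kaede-green cells the log2 fold change of Rgs1 was 2.26 ± 0.23 (SE, n = 4 per group) at 24h, a 4.80-fold difference. At 72h it was 0.01 ± 0.22, with a 95% interval from -0.43 to 0.45. The change of this difference between the times was -2.25 ± 0.32. Rgs1 was called at 24h and for the change between times but not at 72h. In the table as a whole 7.50% of genes were called at 24h, 16.8% at 72h and 0.757% for the change. Within Kaede-red cells Rgs1 fell by 1.64 on the log2 scale from 24h to 72h (SE 0.21), a called change with no overlap between the groups, where 8.68% of all genes were called. That background was itself unstable, with 837 genes called in all but 280 to 1108 when 1 library was left out. The count was 296 without Kaede-red 24h replicate 3, 328 without Kaede-red 24h replicate 4, and 280, 537 and 394 without Kaede-red 72h replicates 1, 2 and 4. For the change of the difference it was 2 to 155, against 73 in all. With libraries scaled by total counts alone neither the fall in Kaede-red cells (-1.23) nor the change of the difference (-2.53) was called, while with the Rn45s share as a covariate both stayed called, as did the 24h difference (2.29). The comparison between times uses the same Kaede-red 24h libraries as the one at 24h, so the pair of values are not independent. In Kaede-green cells the log2 difference between 72h and 24h was 0.61 ± 0.24, not called although all 72h libraries lay above all 24h ones, which held for 3.00% of all genes. Without Kaede-green 24h replicate 3, whose 10.2 CPM was the lowest value, that difference was 0.33 and the Kaede-red against Kaede-green difference at 24h was 1.98.

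Over both times the log2 fold change of Rgs1 was 1.14 ± 0.16, which averages the 24h and 72h values. It was called, with overlapping groups. Of all genes 20.3% were called in this comparison.

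**Figure D1:**
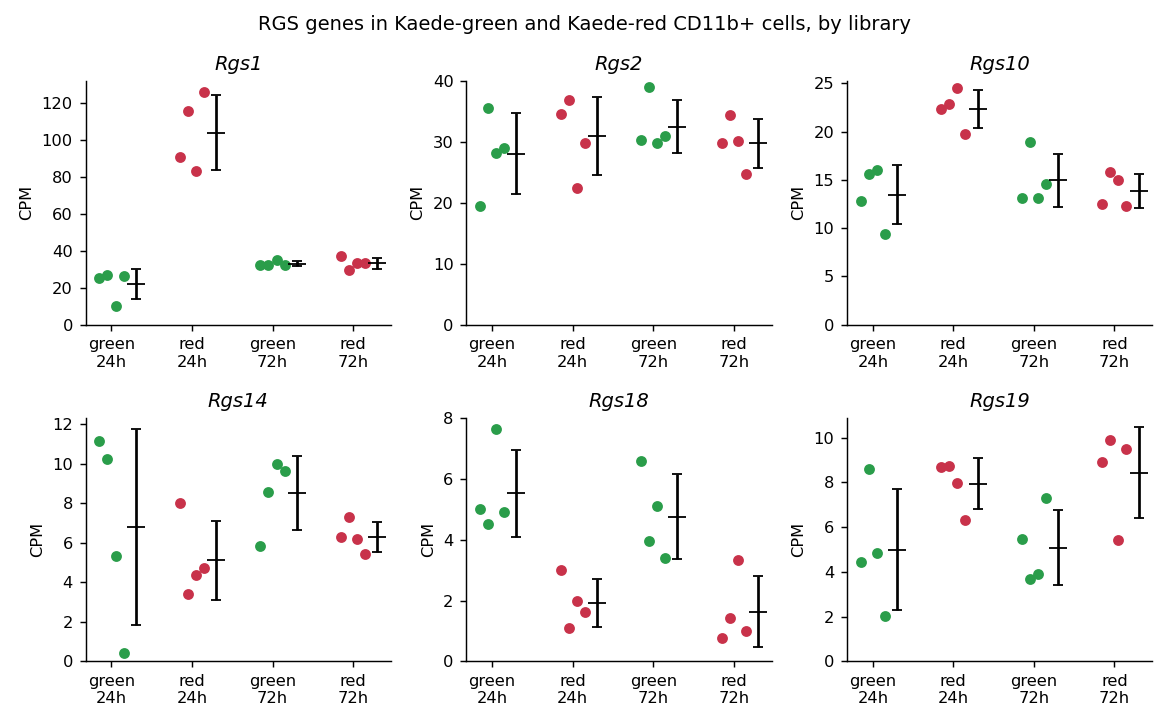
Level of each RGS gene in CPM (TMM scaling, vertical axes starting at 0 and differing between panels) in the 4 libraries of each group, shown as points in the order of replicates 1 to 4, with the mean and SD beside them in black. Rgs1 lies between 83.3 and 126 CPM in Kaede-red 24h cells and between 10.2 and 37.0 CPM elsewhere, and Rgs18 is lower in Kaede-red than in Kaede-green libraries on this scale. With libraries scaled by total counts alone its log2 fold change over both times is 0.56 and not called, where the median of all genes is 2.20.

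Rgs2, which acts on Gq subunits by preference, had the least spread within groups of the clustered genes (pooled SD 0.27 of log2 CPM, against 0.37 for Rgs1 and 0.56 for Rgs18). Its level was 19.5, 35.6, 28.3 and 29.0 CPM in Kaede-green 24h and 34.6, 37.0, 22.5 and 29.9 CPM in Kaede-red 24h libraries. At 72h it was 30.3, 39.1, 29.9 and 30.95 CPM in Kaede-green and 29.9, 34.5, 30.2 and 24.7 CPM in Kaede-red libraries. All 4 groups overlapped. The log2 difference (Kaede-red minus Kaede-green) was 0.13 at 24h (95% interval -0.29 to 0.56) and -0.13 at 72h (-0.54 to 0.28), and Rgs2 was called in none of the 6 comparisons. The interval over both times ran from -0.29 to 0.30, so that differences of that size in either direction were compatible with the data.

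Rgs1 and Rgs2 lie next to each other but for Rgs13. The ratio of their reads within a library, as of any pair of genes, needs no scaling between libraries. There were 2.63, 3.13, 3.70 and 4.23 Rgs1 reads per Rgs2 read in the Kaede-red 24h libraries. The ratio was 0.36 to 1.29 in Kaede-green 24h, 0.83 to 1.18 in Kaede-green 72h and 0.86 to 1.35 in Kaede-red 72h libraries. Every Kaede-red 24h library therefore lay above the other 12. Rgs13 held 2 counts in all, and Rgs21 had 0 in every library, which allows up to 0.0163 CPM over the series (3 counts, counting error only).

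**Figure D2:**
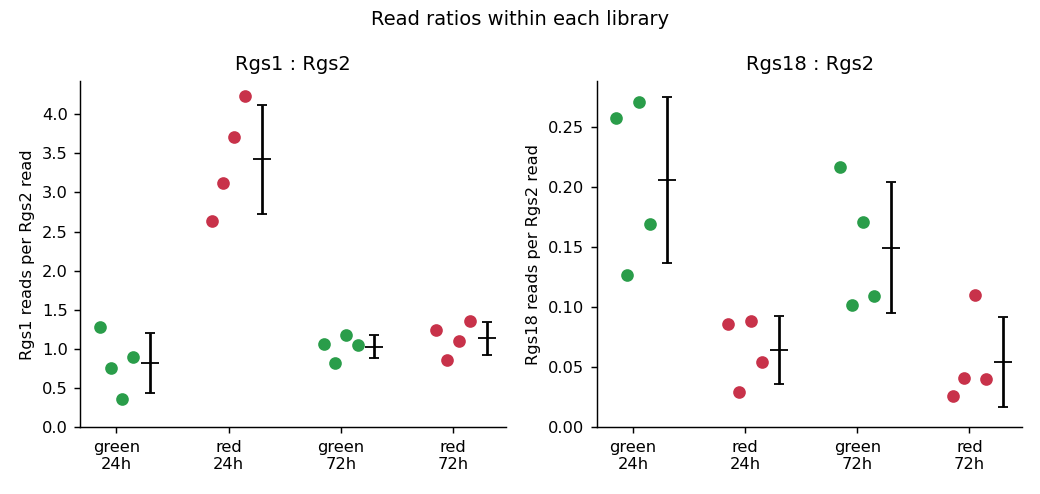
Reads of Rgs1 (left) and of Rgs18 (right) per read of Rgs2 in each library, from raw counts with vertical axes that start at 0. Points are the 4 libraries of each group and black marks the mean and SD. Rgs1 reads per Rgs2 read are 2.63 to 4.23 in Kaede-red 24h libraries and at most 1.35 elsewhere.

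Rgs18, best known from megakaryocytes and platelets, where it limits activation, was lower in Kaede-red cells at both times. Its level was 5.02, 4.51, 7.64 and 4.91 CPM in Kaede-green 24h libraries and 2.99, 1.09, 2.00 and 1.62 CPM in Kaede-red 24h ones. At 72h it was 6.58, 3.97, 5.11 and 3.38 CPM in Kaede-green and 0.783, 1.41, 3.33 and 0.990 CPM in Kaede-red libraries. All 8 Kaede-red libraries lay below all 8 Kaede-green ones, the nearest pair being 3.33 and 3.38 CPM, and 1.74% of all genes were placed in this way. These levels rest on 9 to 30 counts per Kaede-green 24h library and 9 to 34 per Kaede-red 24h library. At 72h they rest on 13 to 21 per Kaede-green and 20 to 56 per Kaede-red library. A count of 9 has an exact 95% Poisson interval of 4.12 to 17.1, which covers counting error only.

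Relative to Kaede-green cells the log2 fold change of Rgs18 was -1.54 ± 0.44 at 24h, -1.71 ± 0.43 at 72h and -1.63 ± 0.31 over both times, a level of 0.324-fold. It was called in all 3, and the difference did not pass the test of a change between the times (-0.17, 95% interval -1.39 to 1.04). With libraries scaled by total counts alone the median of all genes moved to 2.20 over both times and Rgs18 to 0.56, which is -1.65 relative to that median. With the Rn45s share as a covariate its log2 fold change over both times was -1.24 and it was no longer called in any of the 3. At 24h it also lost its call without Kaede-green replicate 3 (-1.32), Kaede-red replicate 2 (-1.35) or Kaede-red replicate 4 (-1.44). The ratio to Rgs2, which needs no scaling, was 0.126 to 0.270 in Kaede-green 24h against 0.0296 to 0.0887 in Kaede-red 24h libraries, and 0.102 to 0.217 against 0.0262 to 0.110 at 72h, so that the groups did not overlap at 24h and did at 72h.

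The platelet list was higher as a sum in Kaede-red cells, where Rgs18 was lower. Its 8 markers of platelets and megakaryocytes summed to 0.819 to 6.69 CPM in Kaede-green 24h, 18.5 to 28.5 in Kaede-red 24h, 1.82 to 5.11 in Kaede-green 72h and 6.78 to 18.9 in Kaede-red 72h libraries. Pf4, a chemokine that macrophages also make, was the 1 marker of them that passed the filter, and it was called higher in Kaede-red cells. In Kaede-green libraries it could not exceed the low list sums above. It may therefore have passed the filter through the Kaede-red libraries, so that no fold is given. Gp9, a subunit of the platelet von Willebrand factor receptor, was at 0 in all libraries. The part of platelets in the level of Rgs18 was not tested.

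**Figure D3:**
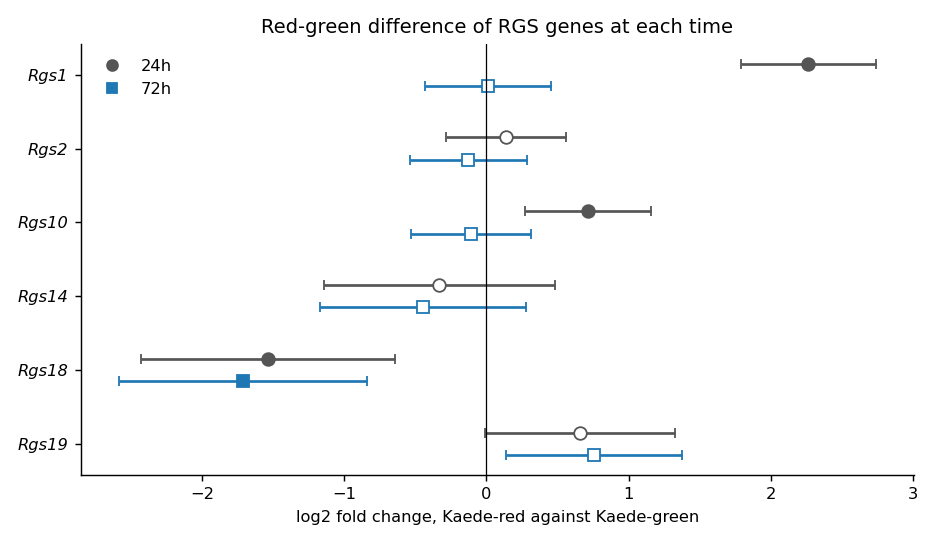
Log2 difference, Kaede-red minus Kaede-green, for each RGS gene at 24h (circles) and 72h (squares), with 95% confidence intervals of the edgeR fit (n = 4 libraries per group). Filled symbols mark called genes. Rgs1 is at 2.26 at 24h and 0.01 at 72h, and Rgs18 is at -1.54 and -1.71. Where libraries are scaled by total counts alone Rgs18 is at 0.82 and 0.30, not called, with the median of all genes at 2.33 and 2.04.

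Rgs10, a small protein that is little more than an RGS domain, acts on Gi subunits and is known from microglia and macrophages. Its level was 12.8, 15.6, 16.1 and 9.41 CPM in Kaede-green 24h and 22.3, 22.9, 24.5 and 19.8 CPM in Kaede-red 24h libraries. At 72h it was 13.2, 18.9, 13.1 and 14.6 CPM in Kaede-green and 12.5, 15.8, 14.97 and 12.3 CPM in Kaede-red libraries. As with Rgs1, all Kaede-red 24h libraries lay above those of every other group, and the groups overlapped at 72h. The log2 fold change was 0.71 ± 0.22 at 24h and -0.11 ± 0.21 at 72h, called at 24h only, and within Kaede-red cells Rgs10 fell by 0.69 on the log2 scale from 24h to 72h (SE 0.20), which was called. The change of the difference between the times, -0.82 ± 0.30, was not called by edgeR, while DESeq2 called it at -0.84.

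The calls of Rgs10 were near the threshold. Its 24h call was lost with the Rn45s share as a covariate (0.74), with the 24h groups fitted alone (0.68), without a filter on low counts (0.80), and without Kaede-green 24h replicate 1 (0.68) or 4 (0.56), Kaede-red 24h replicate 1 (0.72), 2 (0.71) or 3 (0.66), or Kaede-red 72h replicate 2 (0.71). The fall within Kaede-red cells lost its call without Kaede-red 24h replicate 2 (-0.67) or 3 (-0.62), without Kaede-red 72h replicate 1 (-0.64) or 4 (-0.63), without a filter (-0.61) with the covariate (-0.67) and with total counts alone (-0.31).

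Rgs14, a scaffold that joins an RGS domain to Ras and Rap binding domains and a GoLoco motif, had the widest spread within groups of the 6 genes (pooled SD 1.05 of log2 CPM, against 0.24 to 0.56). Its level was 11.2, 10.2, 5.35 and 0.409 CPM in Kaede-green 24h libraries, the last of them from 1 count with an exact 95% Poisson interval of 0.0253 to 5.57 counts. It was 7.99, 3.41, 4.35 and 4.72 CPM in Kaede-red 24h, 5.85, 8.55, 9.97 and 9.62 CPM in Kaede-green 72h and 6.30, 7.29, 6.20 and 5.41 CPM in Kaede-red 72h libraries. All groups overlapped. Its log2 difference, Kaede-red minus Kaede-green, was -0.39 ± 0.27 with the times pooled and not called. Without Kaede-green 24h replicate 4, the library with 1 count, it was -0.60 and called.

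Rgs19, first known as the Gi-interacting protein GAIP, was higher on average in Kaede-red cells at both times. Its level was 4.46, 8.603, 4.84 and 2.04 CPM in Kaede-green 24h and 8.70, 8.76, 7.98 and 6.33 CPM in Kaede-red 24h libraries. At 72h it was 5.48, 3.66, 3.89 and 7.28 CPM in Kaede-green and 8.92, 9.88, 5.44 and 9.50 CPM in Kaede-red libraries. At 24h the Kaede-green library at 8.603 CPM lay within the Kaede-red range, and at 72h those at 5.48 and 7.28 CPM did. The log2 fold change over both times was 0.71 ± 0.22, a 1.63-fold difference that was called, with 0.66 ± 0.33 at 24h and 0.76 ± 0.30 at 72h, neither of them called. With the Rn45s share as a covariate the value over both times was 0.11 and not called, and the call was also lost without Kaede-green 24h replicate 4 (0.57), Kaede-green 72h replicate 2 (0.63) or Kaede-green 72h replicate 3 (0.63). At 72h Rgs19 was called without Kaede-green replicate 4 (1.02) or Kaede-red replicate 3 (0.91).

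Of the 6 genes, 3 were called over both times, against 20.3% of all genes. Rgs1 and Rgs19 were higher in Kaede-red cells, as were 10% of all genes, and Rgs18 was lower, as were 10.3%. At 24h 3 were called, Rgs1 and Rgs10 higher (3.22% of all genes) and Rgs18 lower (4.28%). At 72h 1 was called, Rgs18, among the 8.76% of genes called lower, and none among the 8.06% called higher. Between the times 2 were called in Kaede-red cells, Rgs1 and Rgs10, both among the 3.76% of genes that fell, and none among the 4.92% that rose. When the red-green differences at 24h and 72h were compared, Rgs1 was the 1 member called, among the 0.332% called lower, with 0.425% called higher. In Kaede-green cells no gene of the whole table was called between times by edgeR (0%), with 835 at an unadjusted p under 0.05, 13 called by DESeq2 and 37 by edgeR with no filter.

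Groups without overlap were counted in the same way. Over both times 1 member had them, Rgs18, where 2.94% of all genes did (1.19% higher and 1.74% lower). At 24h 3 had them, Rgs1 and Rgs10 higher and Rgs18 lower, where 12.5% of all genes did (7.09% higher and 5.43% lower). At 72h 1 had them, Rgs18, where 22.6% did (13% higher and 9.52% lower). Between the times 1 had them in Kaede-green cells, Rgs1, where 3.00% did (1.92% higher and 1.08% lower), and 2 in Kaede-red cells, Rgs1 and Rgs10, where 20.6% did (11.8% higher and 8.76% lower). Since earlier results chose the members, nothing is read from these counts.

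Per kilobase of exon, which allows levels to be compared between genes, Rgs10 had the highest mean in 3 of the 4 groups. It was at 11.8 ± 2.68 CPM per kb (SD, n = 4) in Kaede-green 24h, 13.1 ± 2.40 in Kaede-green 72h and 12.2 ± 1.54 in Kaede-red 72h cells. Rgs2 came next at 8.64 ± 2.03, 10.01 ± 1.34 and 9.17 ± 1.23 CPM per kb, and the ranges of Rgs10 and Rgs2 overlapped in both Kaede-green groups but not in Kaede-red 72h. In Kaede-red 24h cells Rgs1 led at 27.1 ± 5.25 CPM per kb, followed by Rgs10 at 19.6 ± 1.72 and Rgs2 at 9.52 ± 1.96, with no overlap between neighbours in this order. Rgs14, Rgs18 and Rgs19 were at most 4.73 CPM per kb in every library. They overlapped one another in both Kaede-green groups, while Rgs18 lay below Rgs19 with no overlap in both Kaede-red groups and below Rgs14 in Kaede-red 72h.

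The share of Rgs1 in the summed level of the 6 genes per kb was 17.3% ± 7.09 in Kaede-green 24h, 42.7% ± 5.99 in Kaede-red 24h, 21.6% ± 2.05 in Kaede-green 72h and 23.3% ± 3.19 in Kaede-red 72h cells. Rgs10 kept a mean share of 31.3% to 34.5% in the 4 groups. Rgs18 made up 8.16% ± 2.47 and 5.94% ± 2.09 in Kaede-green 24h and 72h against 1.52% ± 0.666 and 2.12% ± 1.49 in Kaede-red 24h and 72h cells. The plain sum of the 6 genes was 172 ± 20.9 CPM in Kaede-red 24h and 81.0 ± 14.01, 98.9 ± 5.47 and 93.4 ± 5.16 CPM in Kaede-green 24h, Kaede-green 72h and Kaede-red 72h cells.

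**Figure D4:**
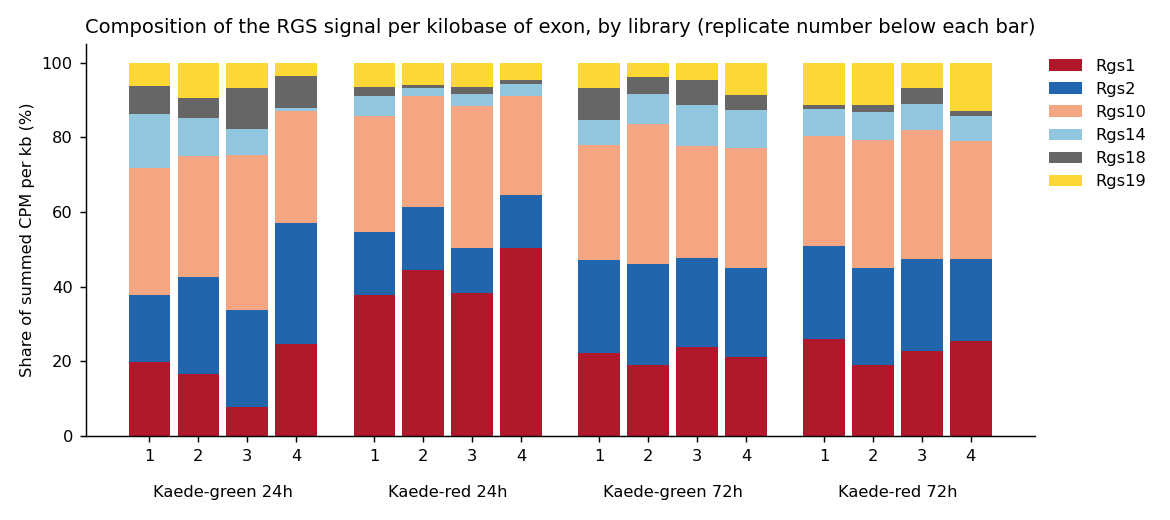
Share of each RGS gene in the summed level of the 6 genes, in percent of CPM per kilobase of exon, as stacked bars for each of the 16 libraries (replicate numbers under the bars). Rgs1 takes 37.7% to 50.4% in Kaede-red 24h libraries and 7.87% to 26.0% in the others.

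The genes whose log2 CPM followed each member most closely over the 16 libraries were picked from 1389 genes with a mean log2 CPM of at least 4. The Pearson correlations are descriptive, since the libraries share the grouping and the depth difference above. Rgs1 was nearest to Fabp5, a fatty acid binding protein (0.91), Id2, an inhibitor of DNA binding (0.84), and Ms4a7, a macrophage membrane protein (0.84). Fabp5 averaged 90.3 ± 19.5 CPM in Kaede-red 24h cells and 37.3 to 46.5 CPM in the other groups. Rgs10 was nearest to Bcl2a1d, an anti-apoptotic gene of a closely related family (0.90), Fam105a (0.88) and Ppia, cyclophilin A (0.83). Rgs18 was nearest to Clec4e, the Mincle receptor (0.90), S100a4, a calcium binding protein (0.90), and Casp1, the inflammasome protease (0.89), and S100a4 averaged 214 ± 34.2 and 170 ± 28.3 CPM in Kaede-green against 40.8 ± 5.05 and 34.7 ± 16.04 CPM in Kaede-red cells. Rgs14 was nearest to the chaperone Dnaja1 (0.81), Tram1 (0.81) and Btf3 (0.80), and Rgs2 to Trim30d (0.76), Nfkbiz (0.66) and H2-Q4 (0.62). The correlations of Rgs14 include Kaede-green 24h replicate 4, where it had 1 count (log2 CPM -0.78), and the part of that library was not tested. Rgs19 was nearest to Pira7, Pira4 and Pira2 (each 0.90), near-identical receptor genes. Pira7 and Pira4 had the same mean and SD in Kaede-red 24h (27.7 ± 6.73 CPM) and in Kaede-green 72h cells (16.7 ± 5.01 CPM). Their rows may therefore largely hold the same reads, and they are not separate neighbours of Rgs19.

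Of the 15 other Rgs genes only Rgs3 passed the filter, with 355 counts in all. Its log2 fold change over both times was 0.80 ± 0.52 and not called, and it was called once Kaede-green 24h replicate 4 was left out. Rgs12 held 140 counts, Rgs17 99 and Rgs16 26. Of 13 other genes with an RGS domain 12 were tested, and with the times averaged 2 were lower in Kaede-red cells while 10 did not pass. They were Arhgef12, a guanine nucleotide exchange factor (-0.93 ± 0.31, adjusted p = 0.0292), and Grk5, a receptor kinase (-0.86 ± 0.29, adjusted p = 0.0351). Each was called at 1 time, Arhgef12 at 72h (-1.88 ± 0.40, against 0.01 ± 0.46 at 24h) and Grk5 at 24h (-1.55 ± 0.42, against -0.16 ± 0.40 at 72h). The change of the difference between the times did not pass the test for either (adjusted p = 0.112 for Arhgef12 and 0.243 for Grk5). On the list 0 were called higher and 1 lower at 24h, and 1 higher and 1 lower at 72h. In the table as a whole 10% of genes were called higher and 10.3% lower with the times averaged. The shares were 3.22% and 4.28% at 24h, and 8.06% and 8.76% at 72h. Averaged over the times Arhgef12 and Grk5 were positive, at 1.15 and 1.13, with libraries scaled by total counts alone, where the median of all genes was 2.20. The median of this list was 0.13, against 0.06 over all genes tested. Of 6 genes listed as neighbours of the cluster on chromosome 1, 4 were tested, with a median of 0.20, and 1 was lower with the times averaged, and at 72h but not at 24h, the glutaredoxin gene Glrx2 (-1.07 ± 0.35, adjusted p = 0.0273, but 1.13 under total counts alone). Leaving out 1 library at a time, Arhgef12 was called in 10 of 16 fits, Grk5 in 9 and Glrx2 in 12.

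Among the listed receptors that RGS proteins act behind, more were called higher than lower. All the gene lists were drawn up with earlier results of these data known, so their counts are a description. Of 40 myeloid G-protein-coupled receptors 34 were tested, of which 9 were higher in Kaede-red cells with the times averaged, 1 was lower and 24 did not pass, with a median of 0.52 against 0.06 over all genes. At 24h 3 were higher and 0 lower, with a median of 0.18 against 0.05, and at 72h 10 were higher and 0 lower, with a median of 0.75 against 0.03. For all genes, 10% were called higher and 10.3% lower with the times averaged. At 24h these shares were 3.22% and 4.28%, and at 72h 8.06% and 8.76%. The largest rises were those of P2ry6, a UDP receptor (1.61 ± 0.33, adjusted p = 0.000575), C3ar1, the complement C3a receptor (1.56 ± 0.16, adjusted p = 1.06e-08), Ednrb, an endothelin receptor (1.46 ± 0.46, adjusted p = 0.0225), and C5ar1, the C5a receptor (1.01 ± 0.16, adjusted p = 1.19e-05). The chemokine receptor Ccr1 fell (-0.35 ± 0.13, adjusted p = 0.0467, but 1.76 under total counts alone). It was called at neither time alone (-0.34 at 24h and -0.36 at 72h), and its call stood in 4 of the 16 fits without 1 library. Ednrb lost its call without Kaede-red 24h replicate 1 (1.26), Kaede-green 72h replicate 2 (1.26) or Kaede-red 72h replicate 4 (1.24), and the list had 6 calls in all without Kaede-red 24h replicate 1. With the Rn45s share as a covariate 1 receptor was called, C3ar1. Under total counts alone 34 receptors were called higher and 0 lower, where the median of all genes was 2.20.

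Of 30 G protein subunits 16 were tested, with 3 higher, 3 lower and a median of -0.12 when the times were averaged. At 24h 0 were higher and 2 lower, and at 72h 3 were higher and 2 lower. Of all genes 10% were called higher and 10.3% lower with the times averaged. These shares were 3.22% and 4.28% at 24h, and 8.06% and 8.76% at 72h. Gna12, an alpha subunit, rose by 1.90 ± 0.35 (adjusted p = 0.000127). The gamma subunit Gng2 rose by 0.88 ± 0.24 (adjusted p = 0.00825), and Gnai2, the main Gi alpha subunit of leukocytes, by 0.77 ± 0.14 (adjusted p = 0.000171). These 3 were called at 72h (2.54, 1.52 and 1.14) and not at 24h (1.26, 0.23 and 0.41), and the change of the difference passed for none of them (adjusted p = 0.417, 0.184 and 0.210). The 3 that fell were gamma subunits, namely Gng10 (-1.78 ± 0.23, adjusted p = 5.21e-07), Gngt2 (-0.92 ± 0.15, adjusted p = 2.61e-05) and Gng12 (-0.74 ± 0.19, adjusted p = 0.00542). Under total counts alone they were at 0.30, 1.27 and 1.41, where the median of all genes was 2.20. None of the 6 was called with the Rn45s share as a covariate.

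Of 7 receptor kinases and arrestins 6 were tested, with a median of 0.13. Arrb2, which uncouples receptors from G proteins, rose by 1.20 ± 0.16 (adjusted p = 8.99e-07), and Grk5, which is also on the RGS domain list, fell. Of 29 effectors 24 were tested, with 3 higher, 3 lower and a median of 0.03. Pik3cg, the kinase driven by beta-gamma subunits, rose by 1.26 ± 0.21 (adjusted p = 3.59e-05), and the Rac exchange factors Prex1 and Dock2 rose by 0.81 ± 0.14 (adjusted p = 6.71e-05) and 0.46 ± 0.14 (adjusted p = 0.0152). The phospholipase Plcb1 (-1.38 ± 0.23, adjusted p = 3.39e-05), the cAMP-responsive repressor gene Crem (-1.21 ± 0.17, adjusted p = 1.88e-06) and the phosphodiesterase Pde4b (-0.54 ± 0.16, adjusted p = 0.0162) fell. Under total counts alone they were at 0.81, 0.97 and 1.64, where the median of all genes was 2.20. By time, 1 kinase or arrestin was higher and 1 lower at 24h and 2 and 0 at 72h, while 1 effector was higher and 2 lower at 24h and 4 and 2 at 72h. Beside these lists, 10% of all genes were called higher and 10.3% lower with the times averaged. The shares at 24h were 3.22% and 4.28%, and at 72h 8.06% and 8.76%. With the covariate no kinase or arrestin and 2 effectors were called.

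**Figure D5:**
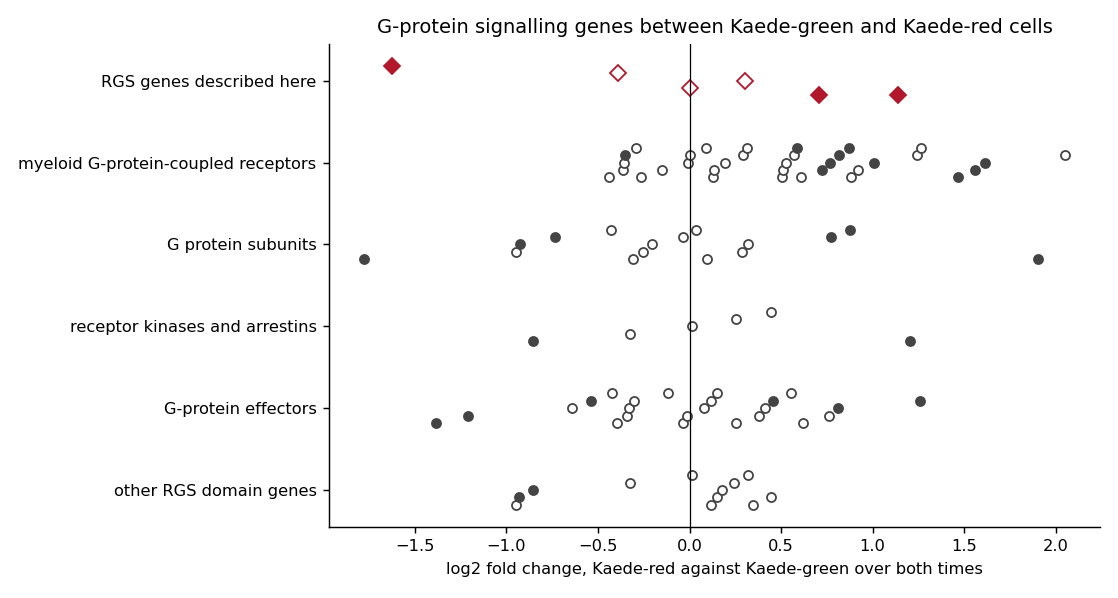
Log2 difference, Kaede-red minus Kaede-green, with the times pooled, for the 6 RGS genes (diamonds) and for the tested genes of 5 lists of G-protein signalling genes (circles), filled where called by edgeR at an adjusted p under 0.05. The receptors hold 9 filled points on the higher side and 1 on the lower. Zero is set by TMM scaling, and called genes on the lower side, Rgs18 included, are above 0 where libraries are scaled by total counts alone. The median of all genes is then 2.20.

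Markers of the sorted cells and of other cells were read in the same fit, and their part in the values of the RGS genes was not tested. The macrophage and monocyte list was the highest, with a summed level of 910 to 2168 CPM in Kaede-green 24h, 617 to 1044 in Kaede-red 24h, 1067 to 1499 in Kaede-green 72h and 1127 to 1429 in Kaede-red 72h libraries. Its mean was 1662 against 852 CPM at 24h, where Rgs1 and Rgs10 were higher in Kaede-red cells, and 1315 against 1288 CPM at 72h. The sum is weighted by the most abundant genes and does not give the direction of the list gene by gene. All 8 genes were tested, and with the times averaged 5 were higher and 1 lower (Lyz2, -1.24) in Kaede-red cells. At 24h 3 were higher, 1 lower and 4 not called, with a median of 0.17 against 0.05 over all genes. At 72h 6 were higher and 0 lower, with a median of 1.20 against 0.03. The fibroblast and pericyte list, with 2 of 6 genes tested and both lower, summed to 35.7 to 41.7 CPM in Kaede-green and 9.69 to 31.5 CPM in Kaede-red libraries, and so moved in the direction of Rgs18. The neutrophil list, of whose 9 genes 8 are in the table, summed to 8.603 to 22.4 CPM, with 1 of 2 tested genes higher (Csf3r, 0.67) and Ngp at 0 in all groups. The lists of T and NK cells (at most 5.73 CPM), dendritic cells (at most 5.09), B cells (at most 2.45), basophils and mast cells (at most 0.775), tumour epithelium (at most 3.68) and erythroid cells (at most 5.81) were low in every library. Of the dendritic cell list 2 genes were tested and Ccr7 was called higher in Kaede-red cells, with 0 counts in every Kaede-green 24h library, 0 to 4 in Kaede-green 72h and 5 to 90 in Kaede-red libraries, so that no fold is given. Cd4 was the 1 gene tested of the T and NK list, with 0 to 3 counts in Kaede-green and 0 to 50 in Kaede-red libraries. It was called higher with the times averaged but at neither time alone. With so few Kaede-green counts, Ccr7 and Cd4 passed the filter through the Kaede-red libraries, and nothing is read from their calls. Of the B cell and erythroid lists 1 gene each was tested and not called, and no gene of the basophil and mast cell or tumour epithelium lists was tested.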

How the data were processed

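RNA from sorted CD11b+ cells (5 ng per library) was made into stranded total RNA libraries and sequenced as paired ends by the authors. Per the labels and the paper, reads were trimmed with Trim Galore, checked with FastQC, aligned to mm10 with HISAT2 and counted on genes with featureCounts, and versions, annotation and strand setting were not given in the sources used here. The deposited values are whole-number counts of reads per gene with no normalization, 24421 genes in 16 libraries, and the combined table holds the same values as the single files. The libraries were made from total RNA, and Rn45s held most of the reads, so that scaling by total counts is set largely by it.

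Counts were analysed with edgeR 4.0.16 in R 4.3.3. Genes were kept by filterByExpr (9642 genes), scaled by TMM, and fitted with 1 mean per group over all 16 libraries. The quasi-likelihood test was used, with Benjamini-Hochberg adjustment over all genes tested and a threshold of 0.05. Kaede-red cells were set against Kaede-green cells at each time and with the times pooled. Within each colour 72h was set against 24h, and the change of the red-green difference was tested. The common dispersion was 0.0702. The 24 pairs of replicates within groups differed by a chi-square of 3.37 to 105 per gene, so no library was a copy of another. Per the paper, libraries came from tumours of separate mice, and whether Kaede-green and Kaede-red libraries came from the same tumour was not given.

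Gene positions, exon lengths and coding sequence came from GENCODE M21, of the same build as the counts. Windows and identities were computed with Biopython 1.88 in Python 3.11.15. The alternatives were DESeq2 1.42.0, other scalings and filters, the replicate number as a block, the Rn45s share as a covariate, the groups compared alone, and each library left out in turn.

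The 6 members and all gene lists were chosen with earlier results of these data known. The genes named were the members, other Rgs genes that passed the filter, up to 4 called rises and 4 called falls of each list over both times, and the 3 genes with the pattern nearest to each member. Rgs12, Rgs13, Rgs16, Rgs17, Rgs21 and the marker genes were named beyond this rule, after their values were seen.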

Additional observations from a re-analysis of the deposited data

Results flagged for a closer look

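Within groups of 4 libraries, the log2 CPM of each RGS gene was searched for a single library far from the rest, as the gap to its nearest neighbour divided by the range of the group. Of 24 groups 3 had such a library, and about 1 in 20 would by chance. Rgs1 in Kaede-green 24h replicate 3 was the lowest, at 10.2 CPM against 25.1 to 27.0 CPM, with a gap of 0.923 of the range. Rgs1 in Kaede-green 72h replicate 3 was the highest, at 35.3 CPM against 32.2 to 32.5 CPM, with a gap of 0.882 of a narrow range. Rgs2 in Kaede-green 72h replicate 2 was the highest, at 39.1 CPM against 29.9 to 30.95 CPM, with a gap of 0.873 of the range.

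The red-green difference in Rgs1 was itself different at the 2 times, with a change of -2.25 on the log2 scale from 24h to 72h (95% interval -2.90 to -1.61, called by edgeR). It stayed called in all 16 fits without 1 library, where it lay between -2.38 and -1.99.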

How the results depend on the processing

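With DESeq2, DESeq2's size factors in edgeR, Rn45s left out, or the replicate block, no call of the 6 RGS genes was lost, and 1 was gained, that of Rgs10 for the change between times by DESeq2 (2 members in place of 1). Scaling by total counts alone moved the median of all genes to 2.20 with the times pooled, 2.33 (24h) and 2.04 (72h), and to 0.74 and 0.42 between times in Kaede-green and Kaede-red cells. There 5 members were called in each red-green comparison, 0 in Kaede-red cells between times and 0 for the change of the difference, and Rgs18 was at 0.56 pooled, 0.82 (24h) and 0.30 (72h). Of the named list genes Arhgef12 was at 1.15, Ccr1 at 1.76, Crem at 0.97, Glrx2 at 1.13, Gng10 at 0.30, Gng12 at 1.41, Gngt2 at 1.27, Grk5 at 1.13, Pde4b at 1.64 and Plcb1 at 0.81, and the calls were 15 G protein subunits, 24 effectors, 34 receptors, 12 other RGS domain genes, 1 other Rgs gene, 6 kinases and arrestins and 4 cluster neighbours, all of them higher.

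With the Rn45s share as a covariate 1 member was called over both times, at 24h and in Kaede-red cells between times, Rgs1 each time, and 0 at 72h. Of the lists 0 subunits, 2 effectors, 1 receptor, 0 RGS domain genes, 0 kinases and arrestins and 0 neighbours were called. Rgs19 was then at 0.11 over both times and 0.07 at 72h. The covariate follows Kaede fluorescence, so the share and the group can be told apart only in part. With no filter 2 members were called at 72h (Rgs18 and Rgs19) and 1 in Kaede-red cells between times, with 1 RGS domain gene and 0 neighbours. With at least 10 counts in every library Rgs14, Rgs18 and Rgs19 were not tested, so that 0 members were called at 72h, 2 for the change between times, 6 receptors, 1 RGS domain gene and 0 neighbours. DESeq2 called 4 RGS domain genes. Without division by length the mean shares were 39.2% for Rgs1, 29.4% for Rgs2 and 14.96% for Rgs10, in place of 26.2%, 22.5% and 32.7%. The cause was not tested where none is given.

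Over all genes edgeR called 1959 with the times pooled, 723 at 24h, 1622 at 72h, 0 and 837 between times in the green and the red groups, and 73 for the change of the difference. In that order the calls were 9328, 9054, 8134, 36, 9 and 1 with total counts alone and 156, 206, 101, 0, 110 and 34 with the Rn45s share as a covariate. DESeq2 called 13 and 1263 between times and 321 for the change, edgeR with no filter 37 in Kaede-green cells and 216 for the change, the Kaede-red groups fitted alone 1604, and the minimum of 10 counts 156 for the change.

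Leaving out each library in turn, members called were 2 to 3 over both times, 1 to 3 at 24h, 1 to 2 at 72h and 1 to 2 in Kaede-red cells between times, and genes called were 280 to 1108 in Kaede-red cells between times and 2 to 155 for the change of the difference. List calls were 6 to 12 receptors, 0 to 3 RGS domain genes, 0 to 1 other Rgs genes, 1 to 3 kinases and arrestins and 0 to 1 neighbours. Same-numbered Kaede-green and Kaede-red libraries deviated together with correlations of 0.05 to 0.15 at 24h and -0.02 to 0.03 at 72h, and not every library was nearest to its own number. The sources do not give a pairing, and the numbers were not treated as pairs. With the replicate block 1852 genes were called over both times and 0 neighbours, and Glrx2 and Grk5 lost their calls. Groups of 4 libraries, and at most 30 counts of Rgs18 in a Kaede-green library, limit what could be seen in the low genes.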
